A study of Homo sapiens with 8 samples.

Results

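Engaged RNA polymerases were described here in HCT116 cells in normoxia, a human colorectal carcinoma line, as PRO-seq mapped them. PRO-seq lets polymerases already sitting on DNA extend their RNA by a few labelled bases in isolated nuclei, so that sequenced reads mark where transcription was under way. The libraries described were the 2 labelled wild-type HCT116 in normoxia, and the sample descriptions of all 4 groups name DMSO, the vehicle. Of the 23193 genes in the count tables, 13529 (58.3%) had more than 0.5 CPM (counts scaled to 1000000 in each table) in both libraries, both at their transcription start site (TSS) and in their gene body. The TSS region ran from 50 bp before to 500 bp after the start, and the gene body from 1001 bp after it to the gene end. Libraries used for comparison came from wild-type (WT) cells after 90 min at 1% O2 and from HIF1A-/- HCT116 cells in normoxia or hypoxia, with 2 libraries for each of these groups. The HIF1A-/- line lacks a short stretch of HIF1A made by homologous recombination. The study's methods describe 2 independent preparations of nuclei.

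RNA polymerase II starts at the promoter, and at most human genes it halts shortly downstream, held by the factors DSIF and NELF. The kinase CDK9, part of P-TEFb, releases it into the gene body, where it elongates to the end of the gene. A high density of polymerase at the TSS beside a low density in the body is the usual mark of such pausing. Gene body density is read as the level of ongoing transcription. It is not the level of mature RNA, which also depends on how long the RNA lasts.

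The 2 libraries held 20699160 and 18125234 gene body reads, and 4436063 and 3813025 TSS reads. Gene body density is given as RPKM, reads per kb of body scaled to 1000000 gene body reads, and TSS density on the same scale, so that their ratio is the plain ratio of reads per base. Across the 13529 genes, log2 gene body density correlated between the replicates with Pearson r of 0.985 and TSS density with 0.971, as a description across genes, which are not replicates. A gene's density varied between the libraries with an SD of 0.24 log2 units in the body and 0.35 at the TSS. Precision followed depth, since the SD was 0.16 for bodies with over 1000 reads and 0.42 for those with up to 30. At the TSS 23.1% of genes with up to 30 reads differed over 2-fold between the libraries, against 0.428% of those with 300 to 1000. A sequenced read is not an independent molecule, since no molecular identifiers were described.

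By summed body reads the epithelial list, the longest, was the highest of the marker lists. Body reads of KRT19, an epithelial keratin, came to 265 and 323 CPM in replicates 1 and 2, and those of KRT8 to 338 and 361 CPM. EPCAM, an epithelial adhesion protein, had 84.9 and 88.9 CPM. Of 21 epithelial and intestinal markers in the tables, 11 passed in both regions, with a summed body density of 161 and 212 RPKM. Markers of differentiated intestine were low, with TFF3 at 0 reads (a limit of 3 reads is 0.145 and 0.166 CPM) and CEACAM5 at 1 read in each library. Of the same list KRT20, VIL1, CDX1, LGR5, ASCL2, CEACAM6, GPA33 and MUC2 did not pass in both regions either. The lists for blood cells, fibroblasts, endothelium and hepatocytes passed with 1 gene each, of 11, 10, 6 and 6 measured. Those genes were CD68, VIM, TEK and APOA1. The summed body reads of these lists were 12.6 and 14.7, 37.2 and 48.2, 14.3 and 24.2, and 5.94 and 8.39 CPM, beside 1174 and 1387 CPM for the epithelial list. The blood markers CD3D, MS4A1 and GATA1 had 0 reads in both libraries. Of 8 neuronal markers 5 passed, led by the tubulin gene TUBB3 at 122 and 135 CPM. The neuronal list summed to 174 and 195 CPM.

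At most members polymerase was denser at the TSS than in the gene body. The ratio of TSS to body density had a median of 11.1 in replicate 1 and 10.4 in replicate 2. It lay above 1 in both libraries at 12501 genes (92.4%), below 1 in both at 566 (4.18%) and on different sides at 462 (3.41%). Taken as the geometric mean of the libraries, the ratio was over 10 but at most 50 at 6006 genes (44.4%) and over 100 at 324 (2.39%). The quartiles were 4.10 and 22.8. The quasi-likelihood test of edgeR, at a Benjamini-Hochberg adjusted p of 10%, called 12170 members denser at the TSS (90.0%) and 367 in the body, and the other 992 members were not called. Over all 14494 genes tested, 86.7% were called denser at the TSS and 3.54% in the body.

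Part of this share was set by how genes and starts were chosen. The authors took for each gene the annotated start with most reads, and membership asked for reads at that start. Over all genes that passed in the body, also those without TSS reads, the TSS was denser at 85.0% and the median ratio was 8.69. The scale matters as well. With each region divided by the total of its own table, the median became 50.7 and the TSS was denser at 99.4% of members, since every ratio was then 4.67 and 4.75 times as high in replicates 1 and 2.

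**Figure D1:**
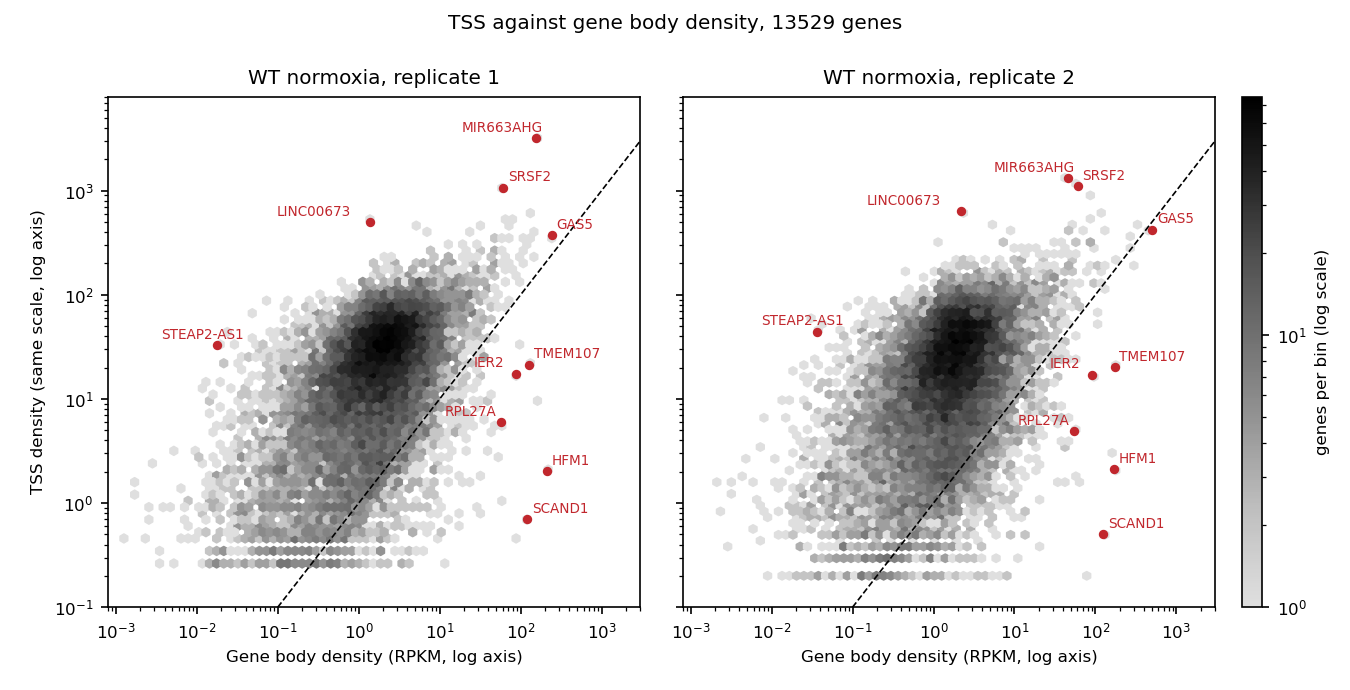
TSS density (vertical log axis) against gene body density (horizontal log axis), both as RPKM, for 13529 genes in replicate 1 (left) and replicate 2 (right) of WT normoxia; the grey scale counts genes per bin, the dashed line marks equal density and red points are named genes. Most genes lie above the line, with median ratios of 11.1 and 10.4, while HFM1, SCAND1, RPL27A, TMEM107 and IER2 lie below it in both libraries.

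Gene body density spanned a wide range. Its median was 1.66 RPKM in replicate 1 and 1.67 in replicate 2. In replicate 1 10% of genes lay below 0.258 RPKM and 10% above 6.24 RPKM, and the top 1% began at 26.7 and 29.6 RPKM in the 2 libraries. In all, 1777 genes in replicate 1 and 1806 in replicate 2 were needed to hold 50% of gene body reads. The 3 genes with most body reads, HFM1, ANKRD30BL and SLCO5A1, held 6.30% and 5.33% of gene body reads. Of TSS reads they held 0.0030% and 0.0014%. Density at the TSS had a median of 19.1 and 17.9. The measures were only loosely related across genes, with a Spearman correlation of 0.47 between mean TSS and mean body density and of 0.49 when TSS density came from replicate 1 and body density from replicate 2. Of the 100 genes densest in the body, 39 were also among the 100 densest at the TSS.

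The 15 densest bodies belonged to genes of varied kinds, among them noncoding hosts of small nucleolar RNAs (snoRNAs) and genes for ribosomal proteins. GAS5, a noncoding host of snoRNAs with its body on the minus strand of chr1:173833038-173836124 (GRCh37, as are all positions here), led with 242 and 500 RPKM in its body and a TSS density of 375 and 421. Its body was therefore less dense than its TSS in replicate 1 and denser in replicate 2, and the region test did not separate them (adjusted p = 0.535 by edgeR). With each table divided by its own total, GAS5 was called denser at the TSS by 2.43 log2 units (adjusted p = 6.78e-07 by edgeR), and SNHG3, RPS2 and LRRC75A-AS1 were called likewise, by 2.61, 2.54 and 2.43. More hosts followed. SNHG1 had 134 and 331 RPKM, SNHG3 144 and 276, and SNHG5 138 and 276. RPS2, a protein of the small ribosomal subunit, had 101 and 288 RPKM. HSPA8, the constitutive cytosolic HSP70 chaperone, had 113 and 194 RPKM. In all 6 of these genes replicate 2 was the higher library. The annotation used here, which may miss others, places snoRNAs inside the bodies of GAS5 (SNORD78), SNHG3 (SNORA73B), RPS2 (SNORA10 and SNORA64) and HSPA8 (SNORD14C, SNORD14D and SNORD14E).

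H2AFX, the histone variant that is phosphorylated at DNA breaks, had 136 and 128 RPKM, and its TSS was denser in both libraries at 594 and 608. RPL13, of the large ribosomal subunit, had 110 and 107 RPKM against 192 and 177 at its TSS. METTL12, a mitochondrial methyltransferase gene whose TSS region contains SNORA57, had 118 and 120 RPKM and a TSS density of 316 and 403. LRRC75A-AS1, a noncoding RNA, had 92.7 and 124 RPKM, and its TSS at 124 and 121 was not separable from the body (adjusted p = 0.548 by edgeR). MALAT1, a nuclear noncoding RNA, had 104 and 106 RPKM and a thinner TSS at 33.9 and 49.6. TMEM107, whose body holds the U8 snoRNA gene SNORD118, had 128 and 172 RPKM against only 21.4 and 20.3 at its TSS.

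In 3 genes of the leading 15 the TSS held few reads. HFM1, a meiotic helicase gene on chromosome 1, had 212 and 168 RPKM in a body of 143104 bp, with 23 and 21 reads at its TSS. ANKRD30BL had 169 and 162 RPKM with 105 and 30 TSS reads. SCAND1, on chr20:34541538-34542280, had 121 and 124 RPKM with 8 and 5 TSS reads. By edgeR the log2 difference of TSS minus body density was -6.52 ± 0.35 (SE), -4.91 ± 0.32 and -7.64 ± 0.41 in HFM1, ANKRD30BL and SCAND1. How evenly reads lay along a body cannot be read from 1 count per gene. Whether these bodies share sequence with other places in the genome was not tested. The 41 bases around the starts used for ANKRD30BL and SCAND1 were not found in the RefSeq promoter sequences of those genes. The 16th gene, RPL13A at 102 RPKM, lay just under the last of the 15, MALAT1 at 105 RPKM.

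**Figure D2:**
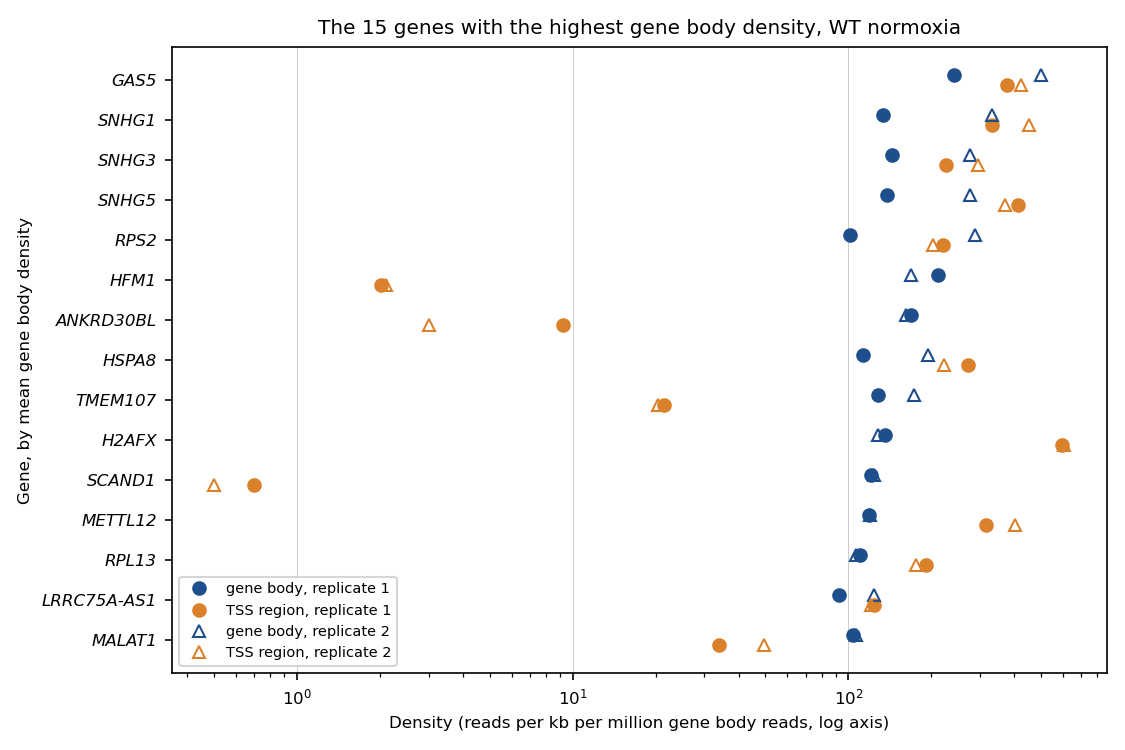
Density (horizontal log axis, RPKM) in the gene body (blue) and at the TSS (orange) for the 15 genes with the highest mean gene body density, with replicate 1 as filled circles and replicate 2 as open triangles. GAS5, SNHG1, SNHG3, SNHG5, RPS2 and HSPA8 have denser bodies in replicate 2, while SCAND1, HFM1 and ANKRD30BL have TSS densities below 10 in both libraries.

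At the snoRNA hosts the WT normoxia libraries differed the other way from those of the other groups, a comparison made after these values were seen. Of the 20 host genes measured, 17 had a higher body density in replicate 2, with a median of 1.25-fold. In each of the other groups replicate 2 was the lower library at all 20 of them, with medians of 0.656-fold, 0.658-fold and 0.666-fold. At the TSS the same genes showed medians between 0.924-fold and 1.01-fold in the 4 groups. Over all members, bodies were higher in replicate 2 at 7134 of 13529 in WT normoxia and 6478 of 13529 in WT hypoxia. In HIF1A-/- normoxia and hypoxia they were so at 7293 of 13518 and 7451 of 13522. Related lists also differed between the groups. Bodies of ribosomal protein genes were higher in replicate 2 at 28 of 70 in WT normoxia. In WT hypoxia, HIF1A-/- normoxia and HIF1A-/- hypoxia they were so at 2, 1 and 1. For translation factors these counts were 9 of 32, then 3, 1 and 1. For GAS5 the WT hypoxia libraries had 391 and 209 RPKM. The HIF1A-/- libraries had 227 and 164 RPKM under normoxia, then 434 and 240 under hypoxia. Among 303 members with an annotated snoRNA in the body, replicate 2 of WT normoxia was higher at 191, with a median of 1.05-fold against 1.01-fold for the others. Those others include SNHG1, a gene of the host list in whose body the annotation used here places no snoRNA. The split therefore does not separate hosts from other genes cleanly. The order at the top thus depends on the library, and 10 genes of the leading 15 were shared between replicates 1 and 2, as were 90 of the leading 100.

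Other lists also moved between the replicates. Body density of DNA replication genes was lower in replicate 2 at 38 of 38 genes with a median of 0.782-fold, and replicate 2 of WT hypoxia was lower at all 38 too, at 0.776-fold. Heat shock and cytosolic chaperone genes had a median of 0.687-fold, with 19 of 21 lower in replicate 2. The stress-inducible HSPA1B had 24.5 and 9.07 RPKM, and it has a near-identical copy, so that its reads are uncertain.

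A different set of genes led at the TSS. MIR663AHG, a noncoding RNA gene on chromosome 20, had 3199 and 1328, so its libraries differed more than 2-fold. Whether the TSS region of MIR663AHG shares sequence with other places in the genome was not tested. Second came SRSF2, a splicing factor, at 1070 and 1110, with a body of 61.1 and 60.3 RPKM. ZFAS1, a snoRNA host, had 490 and 879. EEF1A1, which delivers aminoacyl-tRNA to the ribosome, had 566 and 575. LINC00673, a long noncoding RNA gene on chr17:70399538-70587944, had 500 and 635 at its TSS over a sparse body of 1.38 and 2.16 RPKM. The histone genes HIST1H2BD and H3F3B had 446 and 438, and 431 and 398. H2AFX, IER5L, an early response gene, and C12orf57 completed the first 10.

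Ratios at both ends were read from the 8206 members with at least 100 reads in each region and library. The 8 genes with the highest ratio had long bodies, from 111110 bp at DCT to 583367 bp at STPG2. STEAP2-AS1, a noncoding gene antisense to STEAP2, had TSS densities of 33.1 and 44.3 over a body of 0.018 and 0.0368 RPKM, which are ratios of 1841 and 1202. STPG2 had ratios of 1128 and 1186, and LOC100506207 had 1308 and 957. KCTD16, C8orf37-AS1, LRRIQ3, DCT and PAG1 lay between 481 and 1074. DCT makes a pigment enzyme of melanocytes, and PAG1 an adaptor protein of the plasma membrane. PARK2, at a mean ratio of 595, was next in order.

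The 8 lowest were short genes with a dense body. TMEM107 had ratios of 0.167 and 0.118. IER2, an immediate early gene on chromosome 19, had 0.201 and 0.187, since its body held 6200 and 5698 reads and its TSS 200 and 171. MALAT1 had 0.326 and 0.466. ADM5 and LINC00641 had 0.475 and 0.473, and 0.449 and 0.566. PAN3-AS1, KMT2E-AS1 and C8orf82 lay between 0.429 and 0.711. Their log2 differences of TSS minus body density ran from -2.83 to -0.85, a range that their choice fixed. Their direction depends on the scale. In counts divided by each table's own total 6 of the 8 turned positive, and IER2 came to -0.13 (adjusted p = 0.408 by edgeR). PAN3-AS1, KMT2E-AS1 and LINC00641 are noncoding RNAs.

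Promoter letters are shown next for genes with dense bodies that hold exact letters of one of a pair of known elements. The genes were chosen for holding them. Variants of these letters and longer runs of pyrimidines were not searched for. Among the 15 densest bodies HFM1, ANKRD30BL, HSPA8, TMEM107, SCAND1, RPL13, LRRC75A-AS1 and MALAT1 held neither TATAAA nor TCT in the windows searched. A TATA box lies some bases before the start at a minority of promoters, among them histone genes, and binds TBP. Genes for ribosomal proteins, elongation factors and snoRNA hosts often start within a run of pyrimidines called the TCT initiator or TOP sequence. The following stretches hold 40 bases before and 20 bases from the first transcribed base in the tables, read 5′ to 3′ from GRCh37. Capitals mark TATAAA, or TCT within the last 6 bases before and the first 7 bases from the start.

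GAS5: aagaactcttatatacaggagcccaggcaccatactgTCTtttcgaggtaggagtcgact
SNHG5: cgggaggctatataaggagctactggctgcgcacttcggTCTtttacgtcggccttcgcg
RPS2: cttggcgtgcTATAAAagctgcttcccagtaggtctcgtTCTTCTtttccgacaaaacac
EEF1A1: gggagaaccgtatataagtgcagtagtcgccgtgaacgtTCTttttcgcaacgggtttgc
H2AFX: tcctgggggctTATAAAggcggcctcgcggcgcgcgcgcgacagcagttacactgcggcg
HIST2H2BE: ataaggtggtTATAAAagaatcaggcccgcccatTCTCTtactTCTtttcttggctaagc
METTL12: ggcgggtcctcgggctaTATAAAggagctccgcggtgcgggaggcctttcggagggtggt

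The stretches lie on the minus strand at chr1:173837106-173837165 (GAS5), chr6:86388432-86388491 (SNHG5), chr16:2014808-2014867 (RPS2), chr6:74230736-74230795 (EEF1A1), chr11:118966158-118966217 (H2AFX) and chr1:149858213-149858272 (HIST2H2BE), and on the plus strand at chr11:62432739-62432798 (METTL12). TCT stood in this window, on the sense strand only, at 27 of 70 ribosomal protein genes and 10 of 20 snoRNA hosts, beside 12.8% of all members and 14.6% of all 23193 genes. TATAAA, on the sense strand and beginning 40 to 20 bases before the start, stood at 5 of 13 histone genes (H2AFX, H1FX, HIST1H2BD, HIST1H2BK and HIST2H2BE) and 3 of 31 immediate early genes. Only 91 members (0.673%) had it, against 1.60% of all genes. The windows of the 2 motifs do not overlap. Members with TATAAA had a median body density of 2.79 RPKM and a median ratio of 5.77, and members without it 1.66 RPKM and 10.8. They also had shorter bodies, with a median of 7566 bp against 23215 bp. A match describes letters and is not a mapped site.

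Genes of the translation machinery had dense bodies and modest ratios. All 70 ribosomal protein genes measured lay in the densest 10% of gene bodies, from RPL39 at 11.2 and 8.28 RPKM to RPS2. Their median was 25.2 RPKM, beside 1.66 over all members. Their TSS was dense as well, at a median of 99.7 beside 18.6 over all members. Their median ratio was 4.14, beside 10.8 over all members and 3.48 over the densest 10% of gene bodies. Of that densest 10%, 77.7% were called denser at the TSS and 11.9% in the body. The TSS was denser by edgeR at 67 of the 70 and the body at 1, beside 90.0% and 2.71% of all members. That 1 gene, RPL27A, had 57.2 and 54.8 RPKM in its body and 5.96 and 4.91 at its TSS. The 41 bases around the start used for RPL27A were not found in its RefSeq promoter sequence. Translation factors were lower, with a median of 6.99 RPKM and a ratio of 6.03 over 32 genes. EEF1A1 led them and EIF5B, which joins the ribosomal subunits, was lowest with 2.69 and 2.47 RPKM. SnoRNA hosts had the highest list median, 36.6 RPKM, and a ratio of 3.82. Of the 20 hosts 18 lay in the densest 10% of gene bodies. In this list 16 of 20 (80%) were called denser at the TSS and 0 in the body, beside 90.0% and 2.71% of all members.

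Energy metabolism was intermediate. Over 71 nuclear genes of oxidative phosphorylation the median was 3.97 RPKM and the ratio 9.29, with 69 denser at the TSS, beside 90.0% of all members. CYC1, of complex III, was highest at 16.7 and 19.7 RPKM and NDUFA12, of complex I, had the highest ratio at 53.1 and 49.1. Over 21 glycolysis genes body density was alike at a median of 4.08 RPKM, with a ratio of 4.39. GAPDH led this list with 47.1 and 45.4 RPKM and a ratio of 4.34 and 4.17. PFKFB3, which makes the activator fructose 2,6-bisphosphate, had a ratio of 30.6 and 34.0, whereas its paralogue PFKFB4 had 0.180 and 0.273 with 4 and 5 TSS reads. HIF targets had a low median of 1.14 RPKM, like the Wnt list, and a ratio of 10.7 over 31 genes. EGLN3, an oxygen-sensing hydroxylase that limits HIF, had a body of 0.560 and 0.597 RPKM under a TSS of 92.6 and 90.4.

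Genes that respond fast to signals or stress covered a wide span. Immediate early genes had a median of 7.93 RPKM and a ratio of 7.06 over 31 genes. At one end was IER2, and at the other NR4A3, a nuclear receptor, with 0.0949 and 0.0689 RPKM under a TSS of 8.59 and 4.91. MYC, on chromosome 8, had 30.7 and 52.2 RPKM and ratios of 8.22 and 6.07. Heat shock and cytosolic chaperone genes had a median of 8.90 RPKM and a ratio of 8.55. DNAJB1, an HSP40 co-chaperone, had 18.4 and 10.9 RPKM in its body against 4.82 and 4.61 at its TSS, a direction that turns with each table's own total, as it does for CDT1. ER chaperones had a ratio of 9.45, and P4HB led them at 19.8 and 15.6 RPKM. The 24 p53 targets had a median ratio of 11.8. The cell cycle inhibitor CDKN1A had 12.7 and 12.3 RPKM and a ratio of 17.2 and 14.2.

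Genes of the transcription machinery had ratios near the median of all members. The 33 genes for pausing and pause release factors had a median of 2.40 RPKM and a ratio of 12.5. HEXIM1, which holds P-TEFb inactive, had 34.2 and 30.1 RPKM in its body and 5.96 and 8.21 at its TSS. With each table divided by its own total its log2 difference of TSS minus body was 0.043 (adjusted p = 0.826 by edgeR). LEO1, a subunit of the PAF1 elongation complex, had a ratio of 38.3 and 46.3. The 12 genes for RNA polymerase II subunits had a median of 4.25 RPKM and a ratio of 9.78, and 11 had denser bodies than the median member. POLR2A, which makes the catalytic subunit, had the highest ratio at 29.1 and 32.7, and POLR2I the lowest at 2.00 and 1.59. Core histone and variant genes had a median of 12.3 RPKM over 13 genes. DNA replication genes had 3.71 RPKM, and CDT1, which licenses origins, led them with 21.7 and 19.9 RPKM over a thinner TSS of 17.3 and 9.21.

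HOX genes, which set position along the body axis, and Wnt pathway genes had the lowest list medians at the TSS. Of 37 HOX genes, 24 passed, with a median TSS density of 6.95 beside 18.6 over all members and a ratio of 2.93. HOXB6 had the densest body at 13.1 and 14.6 RPKM, and HOXB2 was the only gene of the list called denser in its body, at 6.88 and 9.82 RPKM against 0.351 and 0.501 at its TSS. Bodies of neighbouring HOX genes lie close together on the same strand, and their part in these values was not tested. Wnt pathway genes had a median TSS density of 6.51, a body of 1.14 RPKM and a ratio of 5.67, and CCND1, the G1 cyclin, led with 21.7 and 25.1 RPKM. The 12 MYC network genes had 1.94 RPKM and a ratio of 6.67. Long noncoding RNAs of the list had 3.67 RPKM and a ratio of 4.46, from HOTAIR at 0.212 and 0.317 RPKM to MALAT1. KCNQ1OT1, an imprinted antisense RNA, had a ratio of 78.0 and 102. Housekeeping reference genes had 17.0 RPKM and a ratio of 4.06, led by ACTG1 at 86.0 and 104 RPKM.

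**Figure D3:**
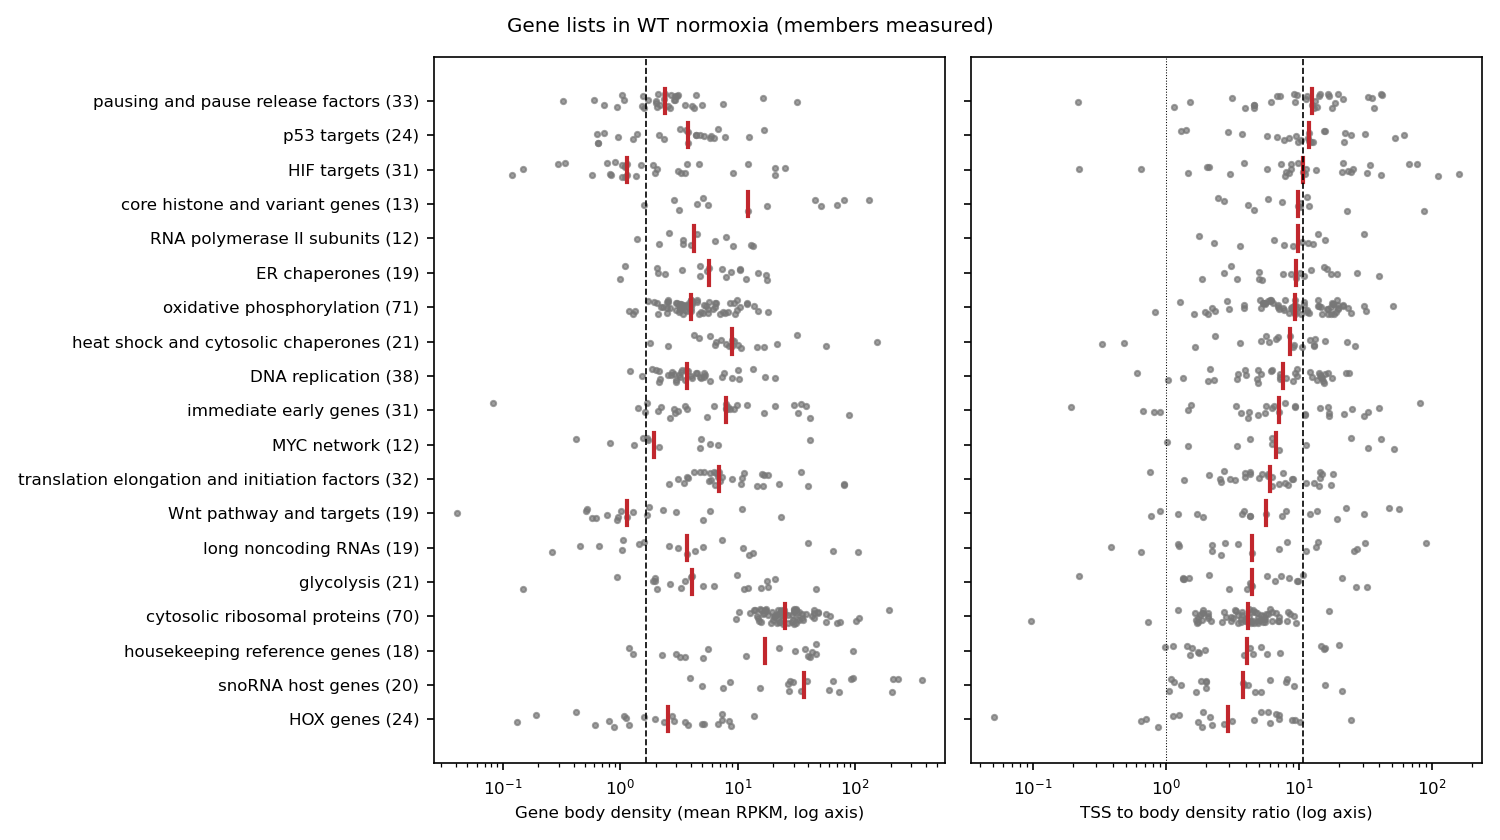
Mean gene body density (left, RPKM, log axis) and TSS to body density ratio (right, log axis) of the genes in 19 lists, with the number measured in parentheses; points are genes, red bars list medians, dashed lines the medians over all 13529 members and the dotted line a ratio of 1. Medians of gene body density run from 1.14 RPKM for the Wnt list and HIF targets to 36.6 RPKM for snoRNA hosts, and medians of the ratio from 2.93 for HOX genes to 12.5 for pausing factors.

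Longer genes had sparser bodies and higher ratios. For bodies of up to 2 kb the median was 5.16 RPKM and the ratio 3.80 over 740 genes. Between 10 and 50 kb it was 1.78 RPKM and 11.9 over 5906 genes, and over 250 kb it was 0.425 RPKM and 32.7 over 366 genes. TSS density changed less, from 19.3 to 20.4 to 10.1 across the same classes. Across members the Spearman correlation of body length was -0.47 with body density and -0.10 with TSS density, as descriptions. The minimum of 0.5 CPM counts reads and not density, so a long body passes at a lower RPKM than a short one, and body density is itself reads over length. The body was called denser than the TSS at 9.73% of genes up to 2 kb and at 0.273% of those over 250 kb.

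By RefSeq annotation 11938 members (88.2%) were protein coding, with a median of 1.74 RPKM and a ratio of 10.9. The 1277 long noncoding RNA genes had 1.06 RPKM and 9.17. CpG pairs, which are dense at the unmethylated promoters of broadly active genes, went with TSS density. Members with at most 2 CpG pairs in the 100 bases before the TSS had a median TSS density of 2.62 and a ratio of 2.66. With 6 to 10 pairs these were 24.8 and 13.2. With 16 or more they were 17.0 and 9.97. Gene body density varied less, at 1.00, 1.85 and 1.73 RPKM in these classes, and the TSS was called denser at 65.6%, 94.7% and 92.1% of their genes.

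**Figure D4:**
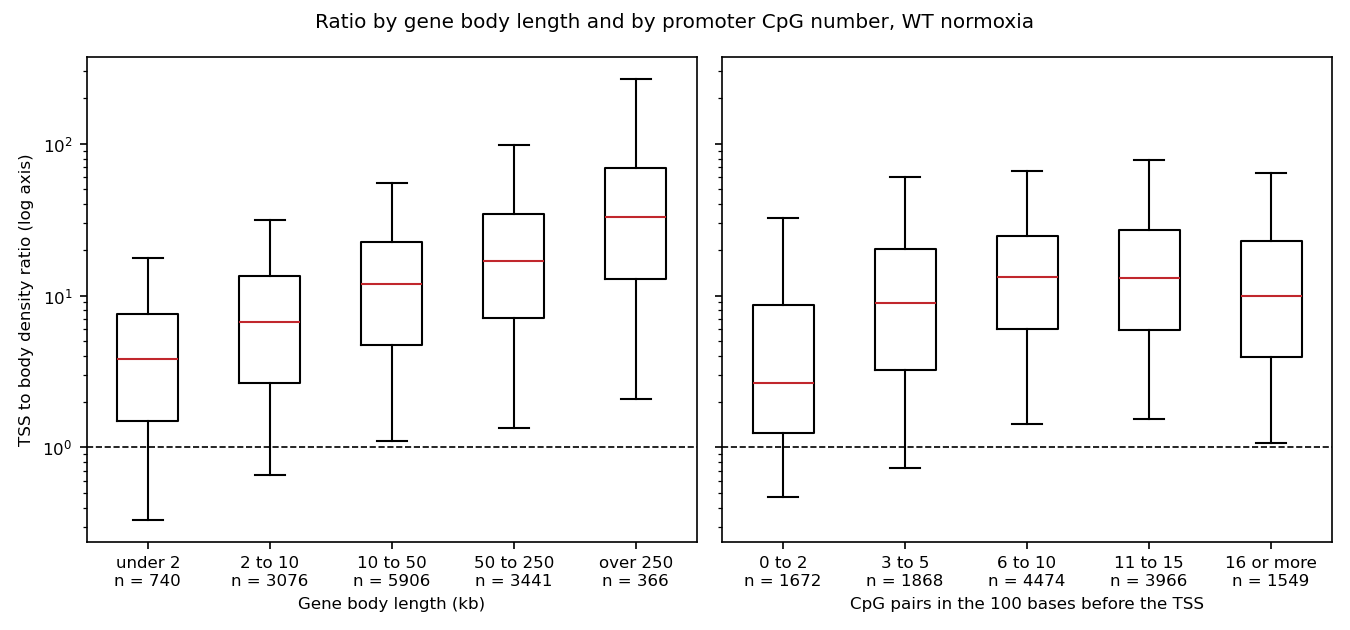
TSS to body density ratio (log axis) of members by gene body length (left, kb) and by the number of CpG pairs in the 100 bases before the TSS (right); boxes span the quartiles, red lines are medians, whiskers reach the percentiles 5 and 95, and the dashed line marks equal density. The median rises from 3.80 to 32.7 with body length and is lowest, at 2.66, with at most 2 CpG pairs.

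The other genes fell under the minimum in at least 1 region. In 6931 genes neither region passed, and 2063 passed in the body alone, of which 1165 had 0 TSS reads in both libraries. Those 2063 bodies held 3.45% and 3.81% of gene body reads. In 670 genes only the TSS passed. Members held 96.5% and 96.1% of gene body reads and 98.8% and 98.7% of TSS reads. At the edge, the least covered region of ACKR2 and APOA1 had 0.525 CPM, and that of B3GNT6 and CHST4 had 0.497 CPM.

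The profile was compared with the other groups over 13010 genes that passed in all 4. The WT normoxia libraries had median ratios of 11.4 and 10.7. With less oxygen the WT libraries had 12.8 and 12.8. The HIF1A-/- libraries had 6.35 and 10.2 under normoxia, then 7.29 and 10.3 under hypoxia. The WT hypoxia libraries lay above both WT normoxia libraries and every HIF1A-/- library below them. In replicate 1 of both HIF1A-/- groups TSS reads made up 11.2% and 12.9% of counted reads, against 16.9% to 20.2% in the other 6 libraries, and their part in the ratio was not tested. With 2 libraries against 2, an exact two-sided permutation test cannot go below p = 0.333, the value for each group against WT normoxia.

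**Figure D5:**
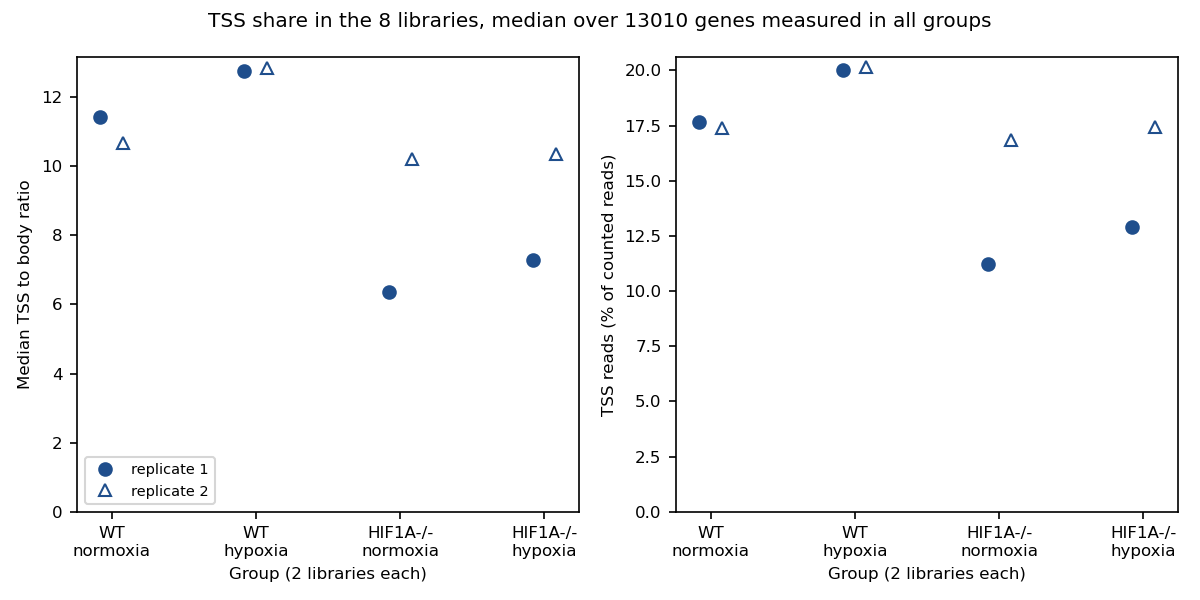
Median TSS to body density ratio over 13010 genes (left) and TSS reads as a percent of all counted reads (right) in the 8 libraries, with replicate 1 as filled circles and replicate 2 as open triangles; both axes start at 0. The WT normoxia libraries lie at 11.4 and 10.7, between WT hypoxia at 12.8 and the HIF1A-/- libraries at 6.35 to 10.3.

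After 90 min at 1% O2, gene body counts were higher at 65 members and lower at 0 by edgeR, where 0.431% and 0% of all 16686 genes tested were called. DESeq2 called 174 genes higher and 1 lower, and edgeR with the replicate number as a block 623 and 296. At an unadjusted p under 0.05 edgeR had 585 genes higher and 184 lower. Leaving out WT normoxia replicate 1 or replicate 2 left 0 called. None of the 15 genes with the densest bodies was among those called by edgeR without the block. The leading 100 of the 2 groups shared 84. In the TSS to body ratio 1 member was higher and 6 lower, beside 0.0069% and 0.0483% of the 14494 genes tested, and with the block 1 and 18 genes. HIF1A itself had 2.59 and 2.89 RPKM and ratios of 30.9 and 33.4 in WT normoxia.

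In HIF1A-/- cells in normoxia, gene body counts were higher at 88 members and lower at 140, beside 0.725% and 1.05% of genes tested. Over all genes these calls numbered 121 and 176, or 656 and 1066 with the replicate block, 299 and 331 by DESeq2, and as few as 29 and 42 without 1 library. HIF1A gene body counts differed by 0.07 log2 units (adjusted p = 0.991 by edgeR), and since the deleted stretch is short the count checks little of the label. LINC00673, among the 10 densest TSS regions of WT normoxia, fell. Its body had 1.38 and 2.16 RPKM in WT normoxia and 0.162 and 0.227 in HIF1A-/- normoxia, which fell by 3.19 ± 0.30 log2 units (adjusted p = 0.00298 by edgeR). Its TSS had 500 and 635, and 154 and 283. In neither region did the groups overlap, but the share of all genes without overlap was not counted. TSS reads made up 11.2% of counted reads in HIF1A-/- normoxia replicate 1, against 17.6% and 17.4% in WT normoxia. Genotype and cell line cannot be told apart. In the TSS to body ratio 4 members were higher and 41 lower, beside 0.0345% and 0.29% of genes tested. Over all genes tested these were 5 and 42, or 8 and 163 with the replicate block. Without replicate 2 of HIF1A-/- normoxia 57 genes were higher and 4682 lower, and without its replicate 1, the library with the low TSS share, 0 and 6.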

How the data were processed

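PRO-seq libraries were sequenced by the authors as single-end reads, aligned to GRCh37/hg19 with HISAT2 2.1.0 without splicing, filtered on mapping quality and counted with featureCounts (Subread 1.6.2), per the methods and the submitters' processing notes. The deposited values are raw counts per gene in 2 tables, for the TSS region and the gene body, with 1 start per gene chosen by the authors from the reads and joined to the shortest annotated body. Starts so chosen raise TSS density, and the mapping filter lowers counts of near-identical copies. Whether reads were counted by strand is not given in the sources used here.

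Groups and replicate numbers came from the sample labels. Genes above 0.5 CPM in both WT normoxia libraries of both tables were kept. Gene body density was computed as RPKM, reads per kb scaled to 1000000 gene body reads, and TSS density on the same scale. Counts were tested with edgeR 4.0.16 (quasi-likelihood, R 4.3.3): gene bodies with TMM over all 8 libraries, and TSS against body in 1 model with library terms, a region term per group and region length as offset. P-values were adjusted by Benjamini-Hochberg at 10%. DESeq2 1.42.0 was an alternative. SE is the log2 difference over the square root of F. Deviations from the group means correlated between same-numbered libraries in each of 6 group pairs (0.493 to 0.844 in bodies, 0.217 to 0.522 at the TSS), so the numbers were taken to pair the samples; no source used here names a shared batch. Promoter bases were read from GRCh37 at the start given in the tables, and biotypes from RefSeq. The 41 bases around the start were found in RefSeq promoter sequences at 8961 members, 82.9% of the 10813 that have one. They were not found at GAS5, ANKRD30BL, SCAND1, IER2 and RPL27A, among others. The part of this in their TSS densities was not tested.

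The named genes were the 15 densest bodies, the 10 densest TSS regions, the 8 highest and 8 lowest ratios among members with at least 100 reads in each value, and in each of 19 lists the 2 highest and 2 lowest bodies and the highest and lowest ratio, besides cell type markers and genes the study discusses. HIST1H2BK and the comparison of replicates by list were chosen after their values were seen. Some items the rule names are not reported here. Members and lists were chosen with earlier results of these data known.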

Additional observations from a re-analysis of the deposited data

Results flagged for a closer look

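The difference between TSS and gene body density was compared between the WT and HIF1A-/- lines in normoxia by a test of the difference itself. It was lower in HIF1A-/- cells at 42 genes and higher at 5, by edgeR with Benjamini-Hochberg adjustment. The median shift over all 14494 genes was -0.42 log2 units. It was -0.10 without HIF1A-/- normoxia replicate 1 and -0.77 without replicate 2, and -0.02 when each table was divided by its own total, where 1 gene was lower and 1 higher.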

How the results depend on the processing

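DESeq2 moved counts over 1.5-fold in gene bodies (hypoxia 174 higher and 1 lower, HIF1A-/- 299 and 331) and in the ratio (hypoxia 12 lower, HIF1A-/- 1 higher and 24 lower). The replicate block, for samples paired by number, gave 623 and 296 for hypoxia and 656 and 1066 for HIF1A-/- in gene bodies, 18 lower ratios in hypoxia, and 8 higher and 163 lower ratios in HIF1A-/- cells; for TSS against body it gave 12594 and 536 and changed no call of the 40 named genes. Each table's own total gave 27 lower ratios in hypoxia, 1 higher and 1 lower in HIF1A-/- cells, 99 genes denser in the body, a median ratio of 50.7 and 99.4% of members denser at the TSS. It turned the difference positive at MALAT1 (0.88 log2 units), ADM5 (1.16), LINC00641 (1.25), PAN3-AS1 (1.29), KMT2E-AS1 (1.30), C8orf82 (1.40) and HEXIM1 (0.043), and made GAS5, SNHG3, RPS2 and LRRC75A-AS1 denser at the TSS. Without a filter on low counts 790 genes were denser in the body. A filter of any count above 0 gave 93.3% of genes denser at the TSS, one of 5 CPM gave 97.6% and a median of 12.3, and all genes passing in the body, an alternative chosen after seeing the data, gave 85.0% and 8.69. Of the 100 densest bodies 62 stayed among bodies of 2 kb or more.

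Leaving out 1 library at a time, hypoxia calls in gene bodies ranged from 0 to 53 higher with 0 lower, HIF1A-/- calls from 29 to 100 and from 42 to 143, ratio calls from 0 to 0 and 0 to 6 in hypoxia, and from 0 to 57 and 6 to 4682 in HIF1A-/- cells. TSS against body gave 11988 to 12289 genes denser at the TSS and 383 to 478 in the body, the median ratio ranged from 10.4 to 11.1 and the share from 93.4% to 94.8%. Without replicate 1 GAS5 came to -0.25, RPS2 to -0.51 and LRRC75A-AS1 to -0.034 log2 units, and without replicate 2 they came to 0.63, 1.13 and 0.42. The cause of these changes was not tested. Depth limits ratios most where a TSS holds few reads: the minimum of 0.5 CPM is 2.22 and 1.91 reads there.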
